A study of Mus musculus with 155 samples.

Results

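The Nodal and BMP branches of TGFβ signaling were followed through 10 genes: Nodal, Gdf3, Tdgf1, Lefty1, Lefty2, Id1, Id2, Id3, Smad6 and Smad7. The genes were listed by name as standard readouts of both branches, with no threshold on a measured value, and all 10 were found among the 55471 genes of the count tables. RNA was measured by sequencing in 42 libraries of KH2 mouse embryonic stem cells (ESCs) and their derivatives. Each line carried a single extra SNAP-HA-tagged copy of histone H3.3, switched on by doxycycline (Dox): wild type (WT-H3.3), H3.3K27M, in which methionine replaces lysine at position 27 and which also inhibits the histone methyltransferase complex PRC2, or H3.3K27L, in which leucine replaces that lysine. The study asked which early effects of H3.3K27M do not run through PRC2, with H3.3K27L and the PRC2 inhibitor GSK343 as the points of comparison.

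All lines, controls included, received Dox and carried the tagged copy, so no library shows the genes without it. The ESC set held 32 libraries: the WT-H3.3 line with and without GSK343 and the H3.3K27M and H3.3K27L lines, each at 4, 8, 24 and 72 h of Dox with 2 replicates. ESCs were grown in serum with LIF and 2i, that is the MEK inhibitor PD0325901 and the GSK3 inhibitor CHIR99021. Retinoic acid (RA) treated cells, kept in 1 µM RA without LIF and 2i, gave 1 library for each of the 3 lines at 24 and at 72 h of Dox, 6 in all. Per the study Dox was added 24 h into RA, so that 72 h of Dox completed 4 days of RA. How long the cells of the 24 h libraries spent in RA was not given. Cultures directed to oligodendrocyte progenitor cells (OPCs) through embryoid bodies, RA and purmorphamine gave 1 library of the WT-H3.3 line and 1 of the H3.3K27M line at 24 and at 72 h of Dox, 4 in all. In the count columns both OPC libraries of a line are named replicate 2, whereas the sample titles name those of 72 h replicate 1. Whether they came from 1 differentiation was not given. Each form of H3.3 was carried by 1 line, so the form and any other difference between the lines cannot be told apart. Per the study's methods the biological replicates were made weeks apart, and in RA-treated and OPC cells, with 1 library per line and time, the spread comes from libraries of different Dox times and lines. All the study's clones carried a potential duplication of chromosome 8, and its genes were left out; no member lies on it.

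Nodal is a TGFβ family ligand that signals through the Activin receptors and SMAD2 and SMAD3, with the co-receptor Cripto (Tdgf1) and the DNA-binding partner FOXH1. It switches on its own gene and those of its secreted inhibitors Lefty1 and Lefty2, which makes these genes common readouts of the branch in pluripotent cells. BMP ligands act through SMAD1, SMAD5 and SMAD9 and switch on Id1, Id2 and Id3, whose proteins lack a DNA-binding domain and hold back basic helix-loop-helix factors. Smad6 and Smad7 encode inhibitory SMADs that dampen signaling, SMAD6 mainly in the BMP branch and SMAD7 in both.

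The promoters of Id3, Id2 and Smad6 are shown because all 3 genes differed between the lines in OPC cultures, and the promoter table held no other member of which this was true. Each is the 250 bases before the gene's start in RefSeq (GRCm38.p6), printed 5′ to 3′ on the gene's strand, with capitals marking CAGAC (or GTCTG on the other strand), the core of a SMAD box, and GGCGCC, the core of a BMP-responsive GC-rich box. Id3 is chr4:136143572-136143821 on the forward strand, Id2 is chr12:25096093-25096342 and Smad6 is chr9:64022060-64022309, both on the reverse strand.
Id3: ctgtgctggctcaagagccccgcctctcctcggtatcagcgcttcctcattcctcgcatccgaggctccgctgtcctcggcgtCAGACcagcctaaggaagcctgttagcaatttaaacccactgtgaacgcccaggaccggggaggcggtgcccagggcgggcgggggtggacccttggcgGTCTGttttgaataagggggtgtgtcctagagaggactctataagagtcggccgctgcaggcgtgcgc
Id2: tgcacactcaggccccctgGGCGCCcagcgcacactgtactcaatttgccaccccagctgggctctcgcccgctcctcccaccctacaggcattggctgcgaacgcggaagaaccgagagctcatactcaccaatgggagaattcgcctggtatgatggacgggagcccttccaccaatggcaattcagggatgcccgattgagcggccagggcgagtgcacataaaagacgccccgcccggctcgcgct
Smad6: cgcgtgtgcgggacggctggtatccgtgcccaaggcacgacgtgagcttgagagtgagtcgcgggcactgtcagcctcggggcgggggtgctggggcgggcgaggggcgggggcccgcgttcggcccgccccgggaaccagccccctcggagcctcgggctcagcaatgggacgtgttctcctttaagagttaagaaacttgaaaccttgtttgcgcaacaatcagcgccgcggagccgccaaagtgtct
Id3 held the CAGAC core 2 times, 68 and 167 bases before the start, Id2 held GGCGCC once, 231 bases before it, and Smad6 held neither. Of 32544 promoters of the same length, 42.2% held CAGAC on either strand and 9.65% held GGCGCC. The windows of Id3 and Id2 each held 18 CG pairs and that of Smad6 27, against a median of 6 over all promoters. Nodal (3 CG pairs) and Tdgf1 (7 CG pairs, with CAGAC 113 bases before the start) were matched too, 5 of the 10 members in all; Lefty1, Lefty2, Gdf3, Id1 and Smad7 are named only.

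The members lie apart in the mouse genome (build NCBIM37, mm9) except for the Lefty pair. Lefty2 (1:182823239-182829234) and Lefty1 (1:182865153-182868531) are near-identical neighbors on the forward strand of chromosome 1, so reads could be split between them and their separate values are uncertain. Nodal lies at 10:60880720-60888086, Gdf3 at 6:122555421-122560105 and Tdgf1 at 9:110842114-110848662. Id1 lies at 2:152561987-152563146, Id2 at 12:25778666-25780957, Id3 at 4:135699412-135701670, Smad6 at 9:63800953-63869866 and Smad7 at 18:75527183-75555589. Exon lengths of the annotated genes run from 1160 bases for Id1 to 4521 bases for Smad7.

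Depth ran from 5295859 to 21161392 counts in 30 ESC libraries, from 2239137 to 22269533 in RA-treated cells and from 7499258 to 12387113 in OPC cultures. The other two ESC libraries were shallow: GSK343 at 8 h, replicate 2, held 1247934 counts, and H3.3K27L at 72 h, replicate 2, held 68378, where 3 counts equal 44.3 CPM (levels are on the counts-per-million scale) and 5 of the 10 members read 0. ESC levels of the members and ESC marker sums are therefore given over the other 31 ESC libraries, and the tests were repeated without the shallowest. Averages of pathway genes over H3.3K27L ESCs, over ESCs at 72 h and over the ESCs set against RA-treated cells still include the shallowest library. The 4 replicate 2 libraries of H3.3K27L also stood apart, with 3.47–4.12% of counts on chromosome 8 against 5.69–6.09% in the other 28 ESC libraries. Summed markers of pluripotent cells, 7 genes, fell from 4605–6721 CPM in ESCs to 113–342 CPM in RA-treated cells and 281–333 CPM in OPC cultures. In the OPC cultures Olig2 averaged 314 CPM in WT-H3.3 and 1060 CPM in H3.3K27M, but the defining OPC markers Pdgfra (20.1 and 0.721 CPM), Sox10 (2.74 and 0.356 CPM) and Gpr17 (0.928 and 0.075 CPM) were low. CPM depends on transcript length, so levels are compared between samples and not between genes. Which library kit (a 3′ kit or a whole-transcript kit) made which library was not given in the sources used here. A difference in kit between samples therefore cannot be told apart from their other differences.

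Nodal ligands and their partners were expressed in ESCs and nearly silent afterwards. Nodal read 64.7, 110 and 135 CPM (lowest, median and highest of 31 ESC libraries), then 3.38–8.83 CPM in the 6 RA-treated libraries. In the 4 OPC libraries it had 1 count in all. Gdf3, a ligand that also signals with Cripto, read 108, 196 and 305 CPM in ESCs and 0.314–2.89 CPM after RA. Tdgf1, the co-receptor, read 487, 729 and 1309 CPM in ESCs and 0.314–1.15 CPM after RA. Neither Gdf3 nor Tdgf1 had a count in any OPC library. No RA-treated or OPC library reached the lowest of the 31 ESC libraries for these 3 genes.

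The inhibitors Lefty1 and Lefty2 followed the ligands. Lefty1 read 21.7, 52.7 and 107 CPM in ESCs and 0.922–1.69 CPM after RA, and Lefty2 read 283, 626 and 920 CPM in ESCs and 0.576–4.72 CPM after RA. In OPC cultures Lefty2 had 3 counts, all in 1 library. Lefty1 had 36 counts in OPC cultures, at 2.18 and 0.84 CPM in WT-H3.3 and 0 and 0.562 CPM in H3.3K27M. ESC and differentiated libraries did not overlap for either gene.

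The BMP readouts went the other way. Id1 read 7.09, 18.5 and 29.7 CPM in ESCs, 93.5–304 CPM after RA and 147–461 CPM in OPC cultures. Id2 read 3.33, 6.22 and 12.7 CPM in ESCs, 128–482 CPM after RA and 478–788 CPM in OPC cultures. Id3 read 0.379, 50.7 and 68.7 CPM in ESCs, 142–1664 CPM after RA and 650–2639 CPM in OPC cultures. For all 3 Id genes every differentiated library was above every ESC library, while RA-treated and OPC libraries overlapped for Id1, Id2 and Id3.

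The inhibitory SMADs differed from each other. Smad6 read 4.22, 7.87 and 12.3 CPM in ESCs and rose to 14.7–36.5 CPM after RA. In OPC cultures Smad6 split by line: 8.07 and 7.71 CPM in WT-H3.3, inside the ESC range, and 0.15 and 1.26 CPM in H3.3K27M, below it. Smad7 read 48.2, 78.0 and 173 CPM in ESCs, 20.3–73.6 CPM after RA and 1.26–8.79 CPM in OPC cultures. Smad7 in RA-treated cells overlapped the ESC range and in OPC cultures did not.

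**Figure D1:**
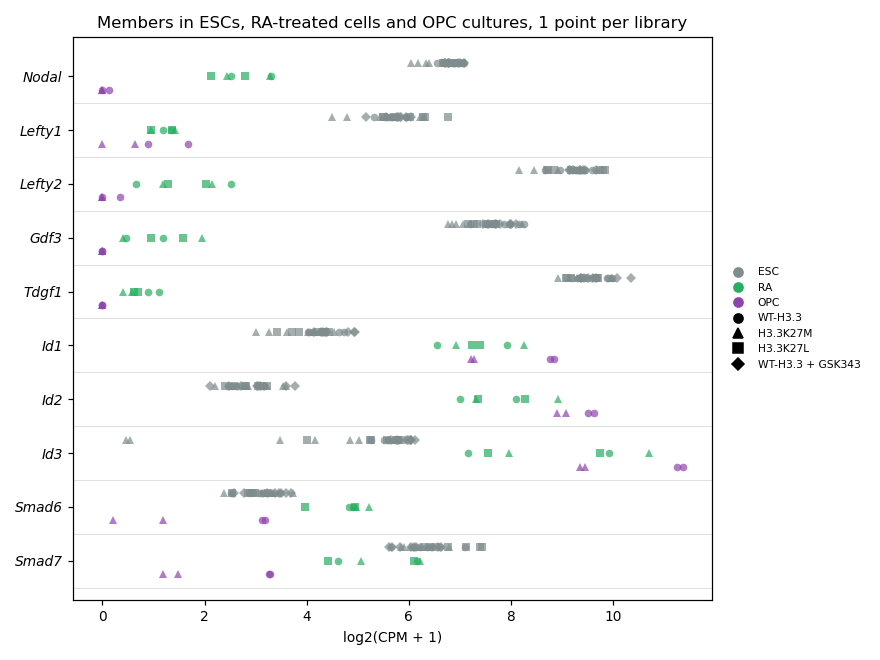
Level of each member in every library as log2(CPM + 1) on the x axis, 1 point per library, for ESCs (31 libraries, without the shallowest), RA-treated cells (6) and OPC cultures (4), with the line as the marker shape. Nodal, Lefty1, Lefty2, Gdf3 and Tdgf1 lie to the right in ESCs and near 0 in OPC cultures, whereas Id1, Id2 and Id3 lie to the right in the differentiated cells.

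Across the stages all 10 members passed the test in both contrasts (edgeR's quasi-likelihood test, adjusted p under 0.05). RA-treated cells against ESCs of the same lines gave 4 members higher and 6 lower, where 36.6% of 16369 genes tested were higher and 35.2% lower. The log2 difference was 3.44 ± 0.17 (SE) for Id1, 5.23 ± 0.18 for Id2, 4.15 ± 0.38 for Id3 and 1.91 ± 0.17 for Smad6. It was -4.09 ± 0.22 for Nodal, -5.25 ± 0.31 for Lefty1, -8.21 ± 0.36 for Lefty2, -7.12 ± 0.32 for Gdf3 and -10.14 ± 0.30 for Tdgf1. Smad7 differed by -0.88 ± 0.23 (adjusted p = 8.64e-04), and it did not pass with the 24 h RA libraries alone, -0.35 (adjusted p = 0.186), or in the WT-H3.3 line alone, -0.83 (adjusted p = 0.0792). Markers of other cell types moved in the same contrast. Summed extraembryonic endoderm markers (8 of 8 higher) were 386–567 CPM in ESCs and 2148–12250 CPM after RA, and summed fibroblast markers (6 of 8 higher and 0 lower) 2.22–12.4 and 81.7–816 CPM. Summed mesoderm markers (7 genes, 4 tested and all higher) were 7.77–18.3 and 46.8–210 CPM, and summed neural progenitor markers (6 of 7 higher and 0 lower) 103–192 and 310–824 CPM. Their part in the members' values was not tested.

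OPC cultures against ESCs gave 3 members higher and 7 lower, where 36.8% of genes tested were higher and 45.6% lower. Id1 differed by 3.96 ± 0.20 (log2 ± SE), Id2 by 6.53 ± 0.22 and Id3 by 5.26 ± 0.46, Lefty1 by -6.19 ± 0.40 and Smad7 by -4.43 ± 0.38. Gdf3 and Tdgf1 had no count, and against a floor of 3 counts over the 4 OPC libraries (0.0875 CPM) they were at least 2252-fold and at least 8856-fold lower than in ESCs. Nodal, at 1 count, was lower by a ratio of 3647 (95% counting interval 655 to 1.4405e+05), and Lefty2, at 3 counts, by a ratio of 6731 (2303 to 32637); these intervals cover counting error only. Smad6 was lower by -1.71 ± 0.29 with the lines weighted equally, but in WT-H3.3 alone it differed by 0.14 (adjusted p = 0.703). Markers moved in this contrast too. Of 7 OPC markers tested 7 were higher, and of 7 neural progenitor markers 6 were higher and 0 lower. Among other cell types, 8 of 8 fibroblast, 7 of 8 astrocyte and 6 of 7 neuron markers were higher, with 0, 1 and 1 lower. Of 8 extraembryonic endoderm markers 5 were higher and 2 lower, and of 4 mesoderm markers tested 0 passed. The part of these markers in the members' values was not tested. Stage and experiment coincide and cannot be told apart, and in bulk samples fewer cells of a type and less RNA per cell cannot be told apart either.

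In the wider lists, BMP pathway genes were mostly higher after RA, and Nodal and Activin genes went both ways. Of 28 BMP pathway genes tested, 23 were higher and 0 lower after RA (median log2 difference 1.39, against 0.01 over all genes tested). They included Bmper, a secreted BMP-binding protein (0.0732 CPM in ESCs and 14.3 CPM after RA), Msx1, a homeobox target (0.849 and 103 CPM), and the ligand Bmp2 (0.232 and 21.2 CPM). Of 19 Nodal and Activin pathway genes tested, 7 were higher and 9 lower after RA (median 0.23). Over all 16369 genes tested 36.6% were higher and 35.2% lower, so genes at large also went both ways. Fst, an Activin antagonist, rose by 4.03 on the log2 scale and the signal transducer Smad3 by 1.84. Foxh1 (49.3 CPM in ESCs and 2.57 CPM after RA), the target Eomes (37.0 and 3.22 CPM) and the proprotein convertase Pcsk6 (94.4 and 10.2 CPM) were lower.

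In OPC cultures 17 of 28 BMP genes tested were higher and 4 lower than in ESCs. Of 19 Nodal and Activin genes tested 4 were higher and 13 lower. Over all genes tested 36.8% were higher and 45.6% lower. Atoh8, a helix-loop-helix target of BMP signaling, went from 0.0599 to 48.2 CPM, the receptor Bmpr1b from 0.161 to 14.0 CPM and the co-receptor Rgma from 12.7 to 149 CPM. The ligand Bmp4 was lower, 15.8 CPM in ESCs and 5.40 CPM in OPC cultures. Foxh1 was at 52.7 CPM in ESCs and had no count in any OPC library. The median log2 difference over all genes tested was -0.27 for OPC cultures against ESCs. Whether that came from the scale or from more genes being lower was not tested.

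In undifferentiated ESCs, none of the 10 members passed the test for H3.3K27M against WT-H3.3, in a comparison where 0.0143% of 14012 genes tested passed (2 genes). The median log2 difference of the members was -0.17, against -0.00 over all genes. Id3 was the farthest from WT-H3.3, and its values split by replicate.

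Id3 in WT-H3.3 ESCs read 37.4, 49.95 and 54.9 CPM (lowest, median and highest of 8 libraries). In H3.3K27M it read 50.7, 52.4, 27.8 and 31.7 CPM at 4, 8, 24 and 72 h in replicate 1, and 10.2, 0.449, 0.379 and 16.9 CPM in replicate 2. The replicate 2 libraries were all below WT-H3.3, and 2 of the 4 replicate 1 libraries were inside its range. The lowest of these values rested on 5 counts at 8 h and 3 counts at 24 h. The log2 difference was -1.09 ± 0.49 (SE, n = 8 per line; adjusted p = 0.387). On the log2(CPM + 1) scale the mean difference from the WT-H3.3 library of the same time and number was -0.38 in replicate 1 and -3.40 in replicate 2.

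Id1 and Gdf3 were also lower in H3.3K27M in 8 of 8 matched pairs, as was Id3; 4.06% of genes tested were lower in all 8. Id1 read 15.4, 19.0 and 25.5 CPM in WT-H3.3 and 7.09, 15.985 and 22.1 CPM in H3.3K27M, with a mean pair difference of -0.09 in replicate 1 and -0.79 in replicate 2. Gdf3 read 146, 215 and 305 CPM in WT-H3.3 and 108, 139 and 299 CPM in H3.3K27M, with -0.22 in replicate 1 and -0.66 in replicate 2. Both genes overlapped between the lines, and neither passed: the log2 difference was -0.40 ± 0.17 for Id1 (adjusted p = 0.37) and -0.38 ± 0.17 for Gdf3 (adjusted p = 0.381). Nodal was lower in 7 of 8 pairs, by -0.28 ± 0.16 (adjusted p = 0.524).

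None of the remaining members passed either. The log2 difference was -0.12 for Lefty1 (95% interval -0.44 to 0.20), -0.14 for Lefty2 (-0.52 to 0.25), -0.10 for Tdgf1 (-0.41 to 0.22), 0.13 for Id2 (-0.18 to 0.44), 0.28 for Smad6 (-0.00 to 0.57) and -0.21 for Smad7 (-0.59 to 0.17). With the replicate number as a block, the members that passed stayed at 0, Id3 differed by -1.34 and the genes called over all genes rose from 2 to 32. That block was 1 effect common to all ESC groups. Yet the replicate differences of WT-H3.3 correlated positively at every Dox time only with those of H3.3K27M. A test of the matched pairs alone was not run. Without the H3.3K27M library of 8 h, replicate 1, Id3 was the 1 member that passed, in a fit that called 326 genes.

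**Figure D2:**
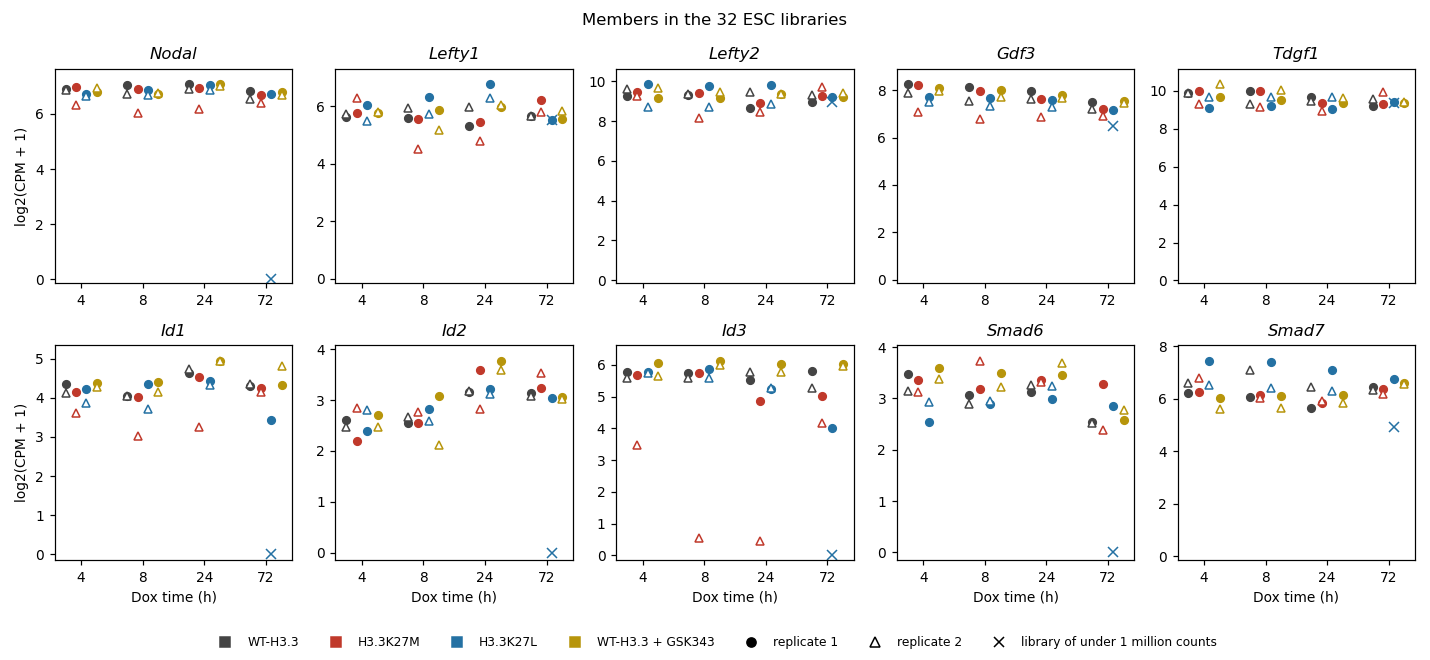
Level of each member in the 32 ESC libraries as log2(CPM + 1) against Dox time, with color for line or treatment, filled circles for replicate 1, open triangles for replicate 2 and a cross for the library of 68378 counts. The H3.3K27M replicate 2 points for Id3 lie below all WT-H3.3 points, at 0.379 and 0.449 CPM for 24 and 8 h, while the other members' points largely overlap.

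H3.3K27L ESCs gave no member past the test, where 8.14% of genes tested passed. Smad7 read 78.0, 108 and 173 CPM (lowest, median and highest of the 7 deeper H3.3K27L libraries) against 49.4, 83.2 and 137 CPM in WT-H3.3. All 4 replicate 1 libraries of H3.3K27L were above 100 CPM for Smad7, from 108 to 173 CPM, and the 3 deeper replicate 2 libraries lay between 78.0 and 91.6 CPM. The lines overlapped, with a log2 difference of 0.45 ± 0.20 (adjusted p = 0.169), and Smad7 was the 1 member that passed once replicate 2 of WT-H3.3 at 8 h was left out. Gdf3 differed by -0.38 ± 0.18 (adjusted p = 0.195) and Id3 by -0.48 ± 0.51 (adjusted p = 0.605). Leaving out the library of 68378 counts kept the number of members that passed at 0. With all 4 replicate 2 libraries of H3.3K27L left out, a check added after the data were seen, Smad7 was again the 1 member that passed, by 0.79 ± 0.18 (adjusted p = 0.007), while Lefty1 differed by 0.46 ± 0.19 (adjusted p = 0.101) and Gdf3 by -0.25 ± 0.22 (adjusted p = 0.431), and the genes called rose from 1141 to 2060.

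Other genes of the pathways did pass in H3.3K27L ESCs. Of 18 Nodal and Activin genes tested 4 were higher, and of 18 BMP genes 1 was higher and 1 lower. Over all 14012 genes tested 430 were higher and 711 lower, 8.14% in all. These calls and the H3.3K27L averages include the 4 replicate 2 libraries of H3.3K27L that stood apart, the shallowest library among them. Fst averaged 10.6 CPM in WT-H3.3 and 22.6 CPM with H3.3K27L (log2 difference 0.91 ± 0.19, adjusted p = 0.00299). The corepressor Tgif1 differed by 0.40 ± 0.09 and the type I receptor Acvr1b by 0.55 ± 0.14. In the BMP list Msx2 differed by 0.55 ± 0.14 and Smad9 by -1.34 ± 0.38, the latter at 0.574 against 1.57 CPM. In H3.3K27M ESCs no gene of either list passed.

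PRC2 inhibition with GSK343 in WT-H3.3 ESCs moved no member past the test. It called 0% of genes tested with edgeR and 0 with DESeq2, with 678 genes at an unadjusted p under 0.05. Smad6 read 4.96, 9.74 and 11.9 CPM with GSK343 and 4.72, 7.53 and 10.1 CPM without it, a log2 difference of 0.33 ± 0.15 (adjusted p = 0.973). Id3 read 49.2, 63.3 and 68.7 CPM with GSK343, overlapping WT-H3.3, and differed by 0.33 ± 0.48 (adjusted p = 0.989). The 95% interval was -0.33 to 0.29 for Nodal, -0.24 to 0.40 for Lefty1, -0.10 to 0.58 for Id1 and -0.69 to 0.07 for Smad7. All 3 ESC comparisons share the 8 untreated WT-H3.3 libraries.

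Members passed in ESCs for time in Dox. Between 4 and 72 h, over all 4 ESC groups, 1 member was higher and 2 were lower, where 12.6% of genes tested were higher and 12.8% lower. Id2 read 3.605, 4.83 and 6.22 CPM at 4 h (8 libraries) and 7.16, 7.50 and 10.6 CPM at 72 h (7 deeper libraries), with no overlap. Its log2 difference was 0.66 ± 0.17 (adjusted p = 0.00942). At 24 h Id2 read 6.07, 8.17 and 12.7 CPM, overlapping the values of 72 h.

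Gdf3 read 133, 242 and 305 CPM at 4 h and 120, 146 and 188 CPM at 72 h, overlapping, with a log2 difference of -0.61 ± 0.18 (adjusted p = 0.0153). Smad6 read 4.80, 8.53 and 11.1 CPM at 4 h and 4.22, 4.96 and 8.71 CPM at 72 h, overlapping, with a log2 difference of -0.52 ± 0.16 (adjusted p = 0.0216). At 8 and 24 h its medians were 7.75 and 8.75 CPM, so the lower values were those of 72 h. Gdf3 did not pass with the relation of expression to exon length removed in each library (-0.39, adjusted p = 0.112), and Smad6 did not pass with DESeq2 (adjusted p = 0.0557) or without the filter on low counts (adjusted p = 0.0933). All 3 members passed without the library of 68378 counts: Id2 by 0.67, Gdf3 by -0.59 and Smad6 by -0.51. Without the 4 replicate 2 libraries of H3.3K27L, Id2 (0.74) and Gdf3 (-0.61) passed and Smad6 did not (-0.45, adjusted p = 0.0738). Smad6 lost its call without any 1 of 5 libraries (WT-H3.3 4 h replicate 1, H3.3K27M 4 h replicate 1 and 72 h replicate 2, H3.3K27L 4 h replicate 2 and 72 h replicate 1), Gdf3 without H3.3K27M 4 h replicate 1, and Id2 without H3.3K27L 72 h replicate 1, which leaves that line only its shallow library at 72 h.

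Among the pathway lists over the same interval, 3 of 18 Nodal and Activin genes tested were higher and 1 lower. Of 18 BMP genes tested 4 were higher and 1 lower. Over all genes tested 12.6% were higher and 12.8% lower, so these counts were near the share of all genes. Gsc, a homeobox target of Nodal, averaged 3.47 CPM at 4 h and 1.39 CPM at 72 h (log2 difference -1.26 ± 0.26, adjusted p = 0.00253). The BMP type II receptor Bmpr2 went from 32.9 to 65.1 CPM and the homeobox target Msx1 from 1.59 to 0.350 CPM. These averages at 72 h include the shallowest library.

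Within ESCs the members did not vary as 1 group. Over the 31 libraries, the genes whose levels ranked most like Nodal among 9773 compared were Ndfip2, an adaptor of ubiquitin ligases (Spearman's rho 0.815), the pluripotency factor Nanog (0.814) and the pyrimidine synthesis gene Umps (0.807). For Lefty1 they were Zfp11 (0.578), the germ cell and pluripotency factor Prdm14 (0.577) and Zfp628 (0.565). For Id1 they were the chromatin factor Hmga2 (0.769), Scrn1 (0.735) and Oxct1 (0.729), and for Id3 Osta (0.734), Tpcn2 (0.730) and Ube2j1 (0.728). Among the 45 pairs of members, rho ran from -0.64 for Smad6 with Smad7 to 0.723 for Nodal with Gdf3. Lefty1 with Lefty2 stood at 0.53, Id1 with Id2 at 0.567 and Id1 with Id3 at 0.502, Gdf3 with Id3 at 0.613 and Id2 with Id3 at -0.15. These libraries share lines, replicates and Dox times, so the coefficients are a description only.

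In RA-treated cells the BMP readouts were higher at 72 than at 24 h of Dox. Of the 7 members tested, 4 were higher and 1 lower, where 33.3% of 12232 genes tested were higher and 36.2% lower; Lefty1, Gdf3 and Tdgf1 were too low to be tested. Id3 went from 142 to 967 CPM in WT-H3.3, from 247 to 1664 CPM in H3.3K27M and from 188 to 862 CPM in H3.3K27L. The 3 libraries of 72 h lay above the 3 of 24 h, by 2.81 ± 0.17 on the log2 scale (7.01-fold, adjusted p = 3.06e-08).

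Id2 went from 128 to 274 CPM in WT-H3.3, from 159 to 482 CPM in H3.3K27M and from 164 to 309 CPM in H3.3K27L. The times did not overlap, and the log2 difference was 1.45 ± 0.15 (adjusted p = 4.19e-06). Id1 went from 93.5 to 240 CPM, from 121 to 304 CPM and from 151 to 167 CPM in the same order of lines, so H3.3K27L differed least between the times. The times did not overlap for Id1 either, with a log2 difference of 1.19 ± 0.21 (adjusted p = 3.08e-04). Lefty2 went from 0.576 to 4.72, from 1.29 to 3.45 and from 1.45 to 3.07 CPM, also without overlap (1.87 ± 0.50, adjusted p = 0.00482).

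Smad7 was lower at 72 h, from 70.3 to 23.6 CPM in WT-H3.3, from 73.6 to 32.3 CPM in H3.3K27M and from 68.1 to 20.3 CPM in H3.3K27L. Its times did not overlap, and the log2 difference was -1.25 ± 0.16 (adjusted p = 2.22e-05). Nodal went from 8.83 to 4.72, from 8.70 to 4.39 and from 5.93 to 3.38 CPM (-0.67 ± 0.30, adjusted p = 0.0636). Smad6 went from 29.2 to 27.5, from 36.5 to 30.4 and from 29.9 to 14.7 CPM, overlapping (-0.20 ± 0.20, adjusted p = 0.376).

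Exon length moved with the same contrast. The median log2 difference of 72 against 24 h was 1.15 for 1234 genes with exons under 1500 bases, 0.26 for those of 1500 to 3000 bases and -0.34 for those of 3000 and over. Id1 and Id2 are in the shortest class, Id3 in the middle one and Smad7 in the longest. With the relation of expression to exon length removed in each library, Id3 differed by 2.29, Id2 by 0.55, Lefty2 by 1.74 and Smad7 by -1.005 and all 4 passed, whereas Id1 differed by 0.18 and did not (adjusted p = 0.393). The share of counts on chromosome 8 was 6.59–8.04% at 24 h and 5.97–6.16% at 72 h. Each line had 1 library per time, and Dox time cannot be told apart from any other difference between the 24 h and the 72 h libraries. Time in RA is 1 such possible difference, as it was not given for the 24 h libraries.

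**Figure D3:**
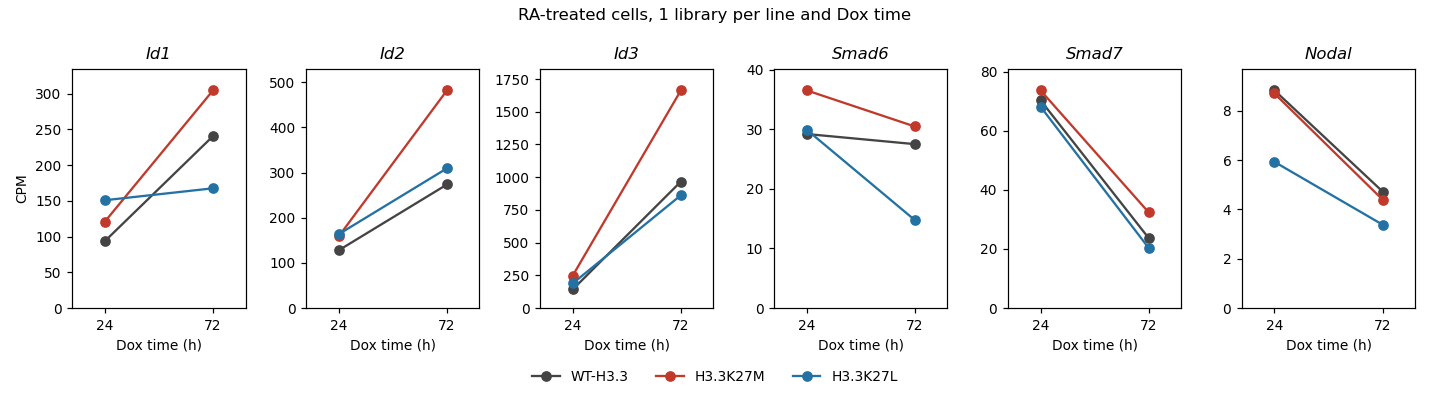
CPM of 6 members in RA-treated cells at 24 and 72 h of Dox, 1 point per library and 1 line per cell line, each panel with its own axis from 0. Id3 climbs in all 3 lines, to 1664 CPM in H3.3K27M, and Smad7 descends in all 3, to 20.3–32.3 CPM.

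Of the pathway lists, 3 Nodal and Activin genes were higher and 8 lower at 72 h, of 16 tested, and 8 BMP genes were higher and 9 lower, of 27, where 33.3% of all genes tested were higher and 36.2% lower. Fst averaged 109 CPM at 24 h and 340 CPM at 72 h (log2 difference 1.93 ± 0.14). The receptor gene Acvr2b went from 27.3 to 76.0 CPM and its relative Acvr2a from 49.2 to 9.55 CPM. The type I receptor Bmpr1a went from 296 to 76.1 CPM and the ligand Bmp6 from 12.8 to 1.21 CPM.

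Between the lines, RA-treated cells gave no member past the test. For H3.3K27M against WT-H3.3, 0 of 7 passed, where 0.0164% of genes tested passed. Id3 was higher in H3.3K27M at both times (247 against 142 CPM at 24 h and 1664 against 967 CPM at 72 h), by 0.73 ± 0.20 on the log2 scale (adjusted p = 0.333). Id2 was higher at both times too, by 0.52 ± 0.19 (adjusted p = 0.638). Id3 was the 1 member that passed once WT-H3.3 at 72 h was left out, in a fit that called 401 genes; that line then held 1 library, assumed to vary like the others. Smad6 did not overlap, 29.2 and 27.5 CPM in WT-H3.3 against 36.5 and 30.4 CPM in H3.3K27M, and differed by 0.19 ± 0.24.

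For H3.3K27L against WT-H3.3 in RA-treated cells, 0 of 7 members passed, where 6.96% of genes tested passed. Nodal differed by -0.56 ± 0.36, Smad6 by -0.35 ± 0.25 and Id3 by 0.09 ± 0.20. The antagonist Fst was higher, 397 against 175 CPM (1.16 ± 0.16, adjusted p = 0.0032), as were Pmepa1, a target that restrains SMAD signaling (0.83 ± 0.18), and Bmper (1.65 ± 0.29). Bmpr1b was lower, 4.28 against 13.2 CPM, and so was the ligand Bmp7, 9.95 against 25.6 CPM. The 8 markers of extraembryonic endoderm all passed as higher in H3.3K27L, with sums of 8523–12250 CPM against 3992–5490 CPM in WT-H3.3. In H3.3K27M their sums were 2148–2617 CPM, and their part in the members' values was not tested.

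In OPC cultures the BMP readouts and both inhibitory SMADs were lower with H3.3K27M. All 5 members that could be tested, Id1, Id2, Id3, Smad6 and Smad7, were lower with H3.3K27M than with WT-H3.3; the 5 Nodal branch members were too low to be tested. Over all 12466 genes tested 51.5% passed and 26.5% were lower, so calls were common in this comparison.

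Id3 read 2429 and 2639 CPM in WT-H3.3 at 24 and 72 h of Dox and 650 and 698 CPM in H3.3K27M. The lines did not overlap, and Id3 was 3.83-fold lower (log2 difference -1.94 ± 0.14, adjusted p = 1.39e-06). Id1 read 432 and 461 CPM in WT-H3.3 and 147 and 154 CPM in H3.3K27M, 3.01-fold lower without overlap (-1.59 ± 0.13, adjusted p = 3.00e-06). Id2 read 724 and 788 CPM in WT-H3.3 and 543 and 478 CPM in H3.3K27M. It was 1.51-fold lower without overlap (-0.59 ± 0.14, adjusted p = 0.00387), the smallest of the 5 differences.

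Smad6 had 89 and 73 counts in WT-H3.3 (8.07 and 7.71 CPM) and 1 and 9 counts in H3.3K27M (0.15 and 1.26 CPM). The lines did not overlap, and the log2 difference was -3.45 ± 0.51 (10.9-fold lower, adjusted p = 2.40e-04), resting on 10 counts in H3.3K27M. Smad7 had 97 and 81 counts in WT-H3.3 (8.79 and 8.55 CPM) and 12 and 9 counts in H3.3K27M (1.80 and 1.26 CPM). It was 5.74-fold lower without overlap (-2.52 ± 0.34, adjusted p = 1.30e-04).

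**Figure D4:**
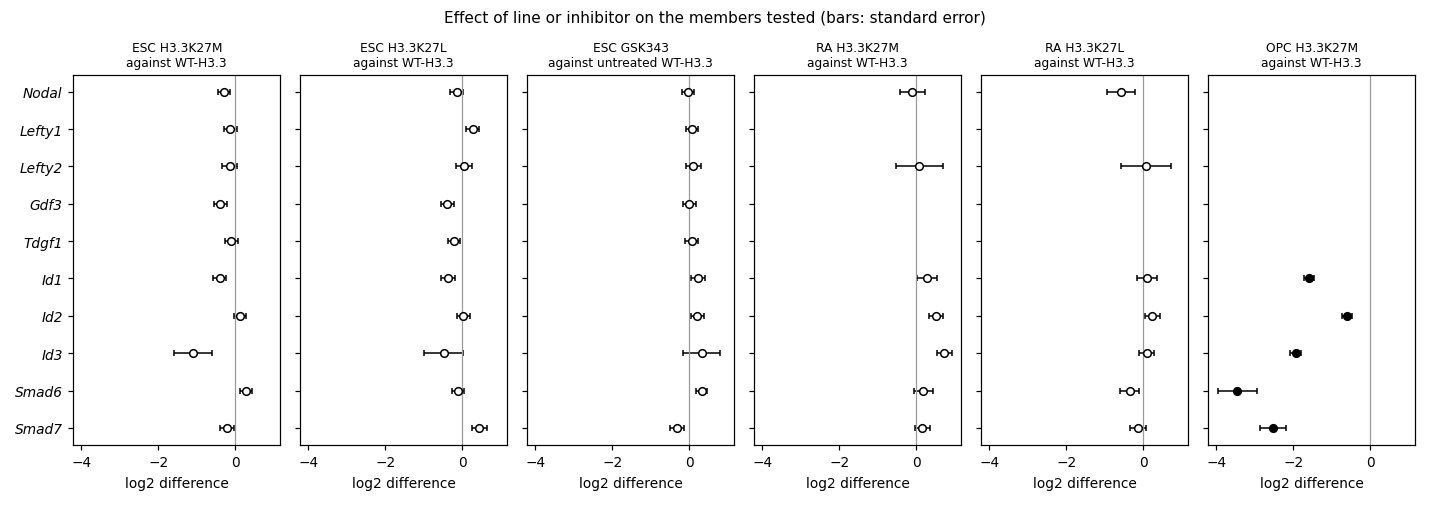
Log2 difference of each member tested, with its standard error, for the 6 comparisons of line or inhibitor in ESCs, RA-treated cells and OPC cultures; filled points passed the test and open points did not. The filled points are the 5 members of OPC cultures, from -0.59 for Id2 to -3.45 for Smad6, and Id3 has the widest bar in each of the 3 ESC panels.

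The difference between stages was tested for each line effect in 1 model of all 42 libraries. The H3.3K27M effect in OPC cultures was below that in ESCs for Smad6, by -3.69 ± 0.57 on the log2 scale (adjusted p = 6.59e-06), and for Smad7, by -2.29 ± 0.65 (adjusted p = 0.0119), where 14.8% of 16369 genes tested passed. Id1 (-1.16 ± 0.46, adjusted p = 0.0901) and Lefty1 (-2.29 ± 0.83, adjusted p = 0.055) did not pass, nor did Id2 (-0.71 ± 0.50) or Id3 (-0.87 ± 1.07). That model has no term for Dox time. With Dox time in each stage as terms, an alternative chosen after the data were seen, Id1 (-1.16 ± 0.35, adjusted p = 0.0104) and Id2 (-0.69 ± 0.25, adjusted p = 0.0334) passed as well as Smad6 (-3.75 ± 0.47) and Smad7 (-2.28 ± 0.57), where 26.0% of genes tested passed, and Id3 did not (-0.84 ± 0.83, adjusted p = 0.516). For RA-treated cells less ESCs, no member passed for H3.3K27M, where 0.00611% of genes passed, or for H3.3K27L, where 0.11% passed, and none passed with the Dox terms.

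Genes of both pathways differed between the lines in OPC cultures, where calls were common. Of 24 BMP genes tested 15 were lower and 2 higher in H3.3K27M (median log2 difference -1.18, against 0.00 over all genes tested). Of 15 Nodal and Activin genes 8 were lower and 2 higher (median -0.83). Over all 12466 genes tested 3302 were lower and 3122 higher, 51.5% in all. Among BMP targets Hey1 averaged 79.1 CPM in WT-H3.3 and 4.42 CPM in H3.3K27M (-4.18 ± 0.19, adjusted p = 9.01e-08), Id4, the fourth Id gene, 78.1 and 3.74 CPM (-4.40 ± 0.24) and Atoh8 82.4 and 13.9 CPM (-2.59 ± 0.17). The ligand Bmp7 (16.03 and 38.5 CPM) and the signal transducer Smad5 (165 and 226 CPM) were the 2 BMP genes that were higher. In the Nodal and Activin list Fst averaged 58.9 and 1.29 CPM, the Activin subunit Inhba 54.3 and 2.29 CPM and Tgif1 71.4 and 22.9 CPM, all lower, while Pcsk6 (8.35 and 45.8 CPM) and Acvr2b (7.32 and 32.02 CPM) were higher.

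Some further BMP genes, which lie outside the rule for named genes and were chosen after their values were seen, are given by role. Among ligands Bmp7 was higher, as above, whereas Bmp4 was lower and averaged 10.7 CPM in WT-H3.3 and 0.145 CPM in H3.3K27M, and so was Bmp2, at 20.0 and 1.082 CPM. Among secreted antagonists Nog averaged 23.8 and 2.16 CPM and Grem1 6.09 and 0.145 CPM. In H3.3K27M the averages of Bmp4 and Grem1 were below the 0.15 CPM that 1 count gave in its 24 h library, so their differences rest on few counts. The pseudoreceptor gene Bambi averaged 35.0 and 10.6 CPM and the signal transducer Smad9 8.61 and 0.586 CPM. Of the receptors, Bmpr1a averaged 71.9 and 76.9 CPM and did not pass, and Bmpr2 averaged 208 and 144 CPM (-0.55, adjusted p = 0.00767). The receptor gene Acvr2b of the Nodal and Activin list was higher, as above, by 2.10 ± 0.21.

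**Figure D5:**
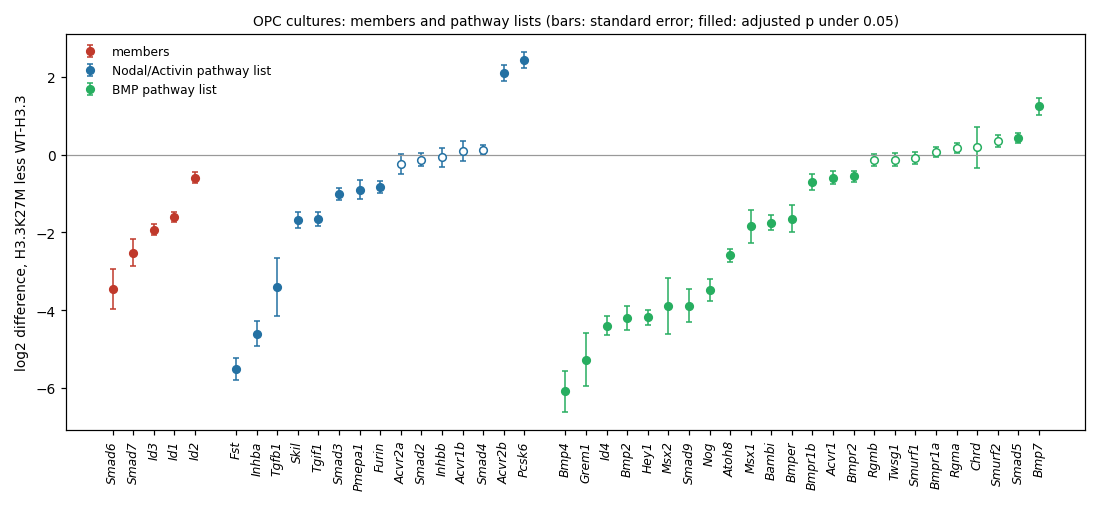
Log2 difference of H3.3K27M less WT-H3.3 in OPC cultures, with its standard error, for the 5 members tested, 15 Nodal and Activin pathway genes and 24 BMP pathway genes, ordered within each list; filled points passed the test. Most filled points lie below 0, down to -6.09 for Bmp4, which had few counts in H3.3K27M. The receptor and Smad genes Bmpr1a, Smad2 and Smad4 lie close to 0.

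Markers of other cell types moved with this comparison. Summed fibroblast markers (8 genes) were 620–666 CPM in WT-H3.3 and 25.6–30.3 CPM in H3.3K27M, with 7 of 8 lower and 1 higher. Summed extraembryonic endoderm markers (8 genes, 7 tested and all lower) were 2533–2973 and 703–908 CPM, and summed mesoderm markers (7 genes, 3 tested and all lower) 54.1–81.1 and 1.95–1.97 CPM, with Hand1 and Msgn1 at 0 in all 4 libraries. Summed OPC markers (8 genes, 5 higher and 2 lower of 7 tested) were 560–593 and 1889–2114 CPM, and summed neural progenitor markers (4 higher and 1 lower of 7) 3863–4288 and 5103–6043 CPM. Summed neuron markers were 775–795 and 1701–1827 CPM, although 3 of the 7 genes were higher and 4 lower (median log2 difference -1.31). Summed astrocyte markers were 1909–2073 and 2178–2793 CPM, with 3 of 8 genes higher and 3 lower (median 0.08). Their part in the lower Id1, Id2, Id3, Smad6 and Smad7 was not tested.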

How the data were processed

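Raw gene counts deposited by the authors were used for 42 RNA libraries; the authors' aligner was STAR 2.7.1 on mm9, with at most 10 mismatches. Depth is given in the report. Of 55471 genes, 32589 matched NCBIM37 (98.17% of counts), and 2540 on chromosome 8 (5.85% of counts) were left out, as in the study. Each comparison was fitted over all genes with edgeR 4.0.16 (R 4.3.3; TMM scaling, filterByExpr, quasi-likelihood F test, Benjamini-Hochberg adjustment over all genes tested), and a gene passed at an adjusted p under 0.05. The ESC model had a mean for each group and Dox time, the RA model line and Dox time, the OPC model line, and the joint model a mean for each stage and group. Levels are CPM after TMM over all 42 libraries. DESeq2 1.42.0 was an alternative, as were other scaling, filters, chromosome 8, fewer times or libraries and the study's fold rule; removal of the exon length relation, the sets without the libraries that stood apart and Dox terms in the joint model were added after seeing the data. The scripts were tested on simulated data.

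The ESC replicate differences of the WT-H3.3 line correlated with those of H3.3K27M (Pearson's r 0.572, 0.678, 0.573 and 0.680 for the 4 Dox times in order, over 9773 genes), so the numbers pair these lines. The rule for the 10 members uses names alone, but the members, the pathway lists and the marker lists were chosen with earlier results of these data known. Named were the members, in each pathway list the 3 genes of lowest adjusted p in each direction per comparison, and the 3 genes ranked most like Nodal, Lefty1, Id1 and Id3 in ESCs. In the Nodal and Activin list 1 gene is not reported here and is left out of the counts and medians. The chromatin immunoprecipitation samples were not analysed here.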

Additional observations from a re-analysis of the deposited data

Results flagged for a closer look

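Smad7 in the H3.3K27M ESC library of 4 h, replicate 2, read 110.1 CPM, against 81.5 CPM in the nearest of the other 7 H3.3K27M libraries. The gap was large for the range of the group; 1 of 40 groups tested stood out in this way, and chance gives about 1 in 20.

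The H3.3K27M effect differed between OPC cultures and ESCs in the test of that difference for 2 members, Smad6 by -3.69 and Smad7 by -2.29 on the log2 scale. Both were near WT-H3.3 in H3.3K27M ESCs (0.28 and -0.21) and lower in H3.3K27M OPC cultures (-3.45 and -2.52). The same 2 members passed with DESeq2, with relative log expression scaling, with chromosome 8 kept and with the exon length relation removed; without the filter on low counts Lefty1 passed too, and with Dox time in each stage as terms Id1 and Id2 did.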

How the results depend on the processing

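The number of members that passed stayed the same in 87 of 94 repeats of the comparisons, and members' changes kept direction and call in 264 of 277. Without the filter on low counts 1 member passed for H3.3K27M in ESCs (Id3), 3 for H3.3K27L in ESCs (Gdf3, Id3 and Smad7) and 1 for H3.3K27M in RA-treated cells (Id3), against 0 in each with it. With 1 library left out, the members that passed ran from 0 to 1 in each of those comparisons and from 1 to 3 for 72 against 4 h in ESCs. Leaving out the 4 replicate 2 libraries of H3.3K27L, chosen after seeing the data, gave 1 member for H3.3K27L (Smad7). The study's fold rule left 0 members for 72 against 4 h. Smad6 in that contrast had an adjusted p of 0.0557 with DESeq2 and 0.0933 without the filter, and Gdf3 differed by -0.39 (adjusted p = 0.112) with the exon length relation removed. Id2 there ran from -1.56 to 0.77 with 1 library left out; it turned to -1.56 ± 2.88 (adjusted p = 0.92) when H3.3K27L at 72 h kept only its library of 68378 counts, and Smad6 in OPC cultures against ESCs turned to 0.14 in WT-H3.3 alone. In OPC cultures Lefty1 could be tested and passed when either 72 h library was left out. Leaving out an RA-treated or OPC library leaves its line 1 library, assumed to vary like the others. For the difference of line effects between stages, 4 members passed in place of 2 with Dox time in each stage as terms, chosen after seeing the data (Id1 and Id2 as well as Smad6 and Smad7). The cause of these changes was not tested.

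With the replicate number as a block 1 member (Gdf3) passed for H3.3K27L in ESCs, and no other count of members changed. In ESCs the block was 1 effect common to all groups. With those of WT-H3.3, the replicate differences correlated positively at every Dox time for H3.3K27M only. Between WT-H3.3 and H3.3K27L the correlation of replicate differences was -0.552, -0.682, -0.617 and 0.233 at 4, 8, 24 and 72 h. Between WT-H3.3 and GSK343 it was 0.056, -0.258, -0.387 and 0.589. Over all genes the blocked fits called 32 genes for H3.3K27M, 1373 for H3.3K27L, 0 for GSK343, 3921 for 72 against 4 h and 7466 in OPC cultures. The block in OPC cultures was the Dox time.

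Counts over all genes moved more. For H3.3K27M in ESCs, 2 genes became 7 with DESeq2, 425 without the filter, 9 with length removed, 0 at 24 and 72 h, 0 at 4 and 8 h, 0 with only the libraries compared, 1 without the shallowest library and 0 to 326 with 1 library left out. For H3.3K27L, 1141 became 97 at 24 and 72 h, 492 at 4 and 8 h, 481 under the fold rule, 2060 without replicate 2 of H3.3K27L and as low as 242 with 1 library left out. For GSK343, 0 became 115 without the filter, 2 with length removed and up to 4. For 72 against 4 h, 3565 became 2343 with length removed, 566 under the fold rule and as low as 1460. In RA-treated cells, 2 for H3.3K27M became 27 with DESeq2, 129 without the filter, 23 with length removed, 0 without the Dox time term and 0 to 401, and 851 for H3.3K27L became 0, 445 under the fold rule and up to 1768. The fold rule left 5242 of 8495 for 72 against 24 h, 3482 of 6424 in OPC cultures and 7804 of 11753 for RA against ESCs. Members with few counts are limited by depth, above all Smad6 in H3.3K27M OPC cultures and every member in the library of 68378 counts.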
